A study of Mus musculus with 19 samples.

Results

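The interleukin-1 system of blood leukocytes was followed through 10 genes out of 27597 gene names on the array. The genes were listed by name, with earlier results of these data known. They are the ligands Il1a, Il1b and Il18, the receptor antagonist Il1rn, the receptor genes Il1r1, Il1r2, Il18r1 and Il18rap, and the inflammasome genes Casp1 and Nlrp3. The RNA came from leukocytes of whole blood of male B6 and DBA/2 mice. Every mouse had been injected intraperitoneally with CAWS on consecutive days. CAWS is a water-soluble mannoprotein and beta-glucan fraction of the yeast Candida albicans that provokes vasculitis of the coronary artery and aorta, which is often lethal in DBA/2 mice and milder in B6 mice. In both strains 0 w denotes the time right after the last injection, so that the baseline mice had also received CAWS and no uninjected mice enter the comparisons. Later samples were taken 2, 4, 8 and 9 w after the injections, from the mice still alive at that week. The methods give the age of the mice as a range for the whole study and not for each group.

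Each DBA/2 group (0, 2, 4, 8 and 9 w) held 2 RNA samples, as did the B6 groups at 0, 4 and 8 w. The B6 groups at 2 w and 9 w held 1 sample each. These 18 samples were hybridised on 19 single-colour arrays, and the 2 arrays of 1 sample (B6 0 w, replicate 2) were averaged. The labels call the replicates biological, 1 of them (DBA/2 2 w, replicate 2) also technical, and the methods speak of individual mice. No label ties a sample to an animal, so the p-values measure the spread between these samples. All replicate 1 samples were scanned on 1 day and all replicate 2 samples on another. B6 2 w held only a replicate 1 and B6 9 w only a replicate 2, so their changes set 1 scan day against 0 w samples of both days. A level below is the log2 of a probe's processed signal minus the 75th percentile of its array, so that a level of 0 equals that percentile. Levels of different probes are not comparable with each other.

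Between 33.9% and 51.4% of the 43379 gene spots of an array were well above background, the scanner software's call that a spot is brighter than its surroundings. The sources call the cells both leukocytes of whole blood and PBMC, a fraction that normally lacks neutrophils, and markers of all leukocyte types were present, with 10 of 10 monocyte genes well above background in every sample and at least 7 of 10 neutrophil genes and 7 of 8 T cell genes in every group. Hepatocyte markers set 2 groups apart. Their summed linear level over 9 genes (the sum of the scaled signals of those well above background) was 45.8 and 47.0 in the B6 0 w samples and 23.8 and 25.1 in the B6 8 w samples, against 0.442 to 1.44 in the other 14 samples. All B6 changes from 0 w and all strain differences below use the B6 0 w samples, which cannot be left out. The part of hepatocyte RNA in them was not tested.

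IL-1 alpha and IL-1 beta bind the same receptor and set off fever, neutrophil recruitment and vascular inflammation, and IL-18 is a related cytokine that drives interferon-gamma production in T cells and NK cells. IL-1 beta and IL-18 are made as inactive precursors, which are cut by caspase-1 once an inflammasome, such as the one nucleated by NLRP3, has assembled. The system is held in check by a receptor antagonist that occupies the receptor without signalling and by a decoy receptor that captures the ligand. In blood, monocytes and neutrophils are the main carriers of IL-1 beta and of the decoy receptor, whereas the IL-18 receptor marks NK cells and some T cells.

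Il1b, the decoy receptor gene Il1r2 and Il1rn rose at every later week in both strains. With the normexp background correction, an alternative that estimates the background from all spots of an array, Il1b kept all of these calls, whereas Il1r2 lost those of B6 mice at 2, 4 and 9 w and Il1rn all but that of DBA/2 mice at 9 w. Casp1 rose at 8 and 9 w in both strains, Il18 rose from 4 w on in DBA/2 mice, and no change of Nlrp3 passed the threshold of 0.05 on the adjusted p. Under normexp the calls of Il18 at 4, 8 and 9 w and those of Casp1 in B6 mice at 2 w and 9 w and in DBA/2 mice at 4 w were lost. All calls of a change from 0 w of Il18rap and Il18r1, given below, were lost as well. All 10 genes had probes, 14 in all, and 9 genes had a probe that was called well above background in 2 or more samples of 18 and was tested by limma with Benjamini-Hochberg adjustment over all tested probes. Il1a was not. 7 genes were well above background in all 18 samples, whereas Il1rn was so in 16 and Il1r1 in 2, so that Il1r1 entered the test only through 8 w samples and the counts below are descriptions.

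In DBA/2 mice 4 of the 9 tested genes rose at 2 w (Il1b, Il1r2, Il1rn and Il18rap) and none fell, beside 7.91% of all tested probes that rose and 7.82% that fell. At 4 w 7 genes rose, the same 4 with Casp1, Il18 and Il18r1 (7.58% of all probes rose and 7.22% fell). 6 genes rose at 8 w (10% rose, 14.0% fell) and 6 at 9 w (13.4% rose, 14.3% fell), the 7 of 4 w without Il18r1 in both cases. The median log2 change of the 9 genes was 0.26, 0.58, 1.21 and 0.76 at 2, 4, 8 and 9 w, while that of all tested probes was -0.05, -0.10, -0.18 and -0.03.

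In B6 mice 4 genes rose at 2 w (Il1b, Il1r2, Il1rn and Casp1) and Il18r1 fell, with 5.28% of all tested probes higher and 7.74% lower. At 4 w 3 genes rose (Il1b, Il1r2 and Il1rn) and Il18r1 fell (6.02% higher, 9.66% lower). The largest B6 count was found at 8 w, when 5 genes rose (Il1b, Il1r2, Il1rn, Casp1 and Il18rap) and Il18r1 fell (11.0% higher, 10.2% lower). Il1r1 also passed the threshold there, but it entered the test only through 8 w samples and no rise of it was measured. At 9 w 5 genes rose (Il1b, Il1r2, Il1rn, Casp1 and Il18rap) and none fell (5.48% higher, 3.86% lower). The median change of the 9 genes was 0.49, -0.03, 0.89 and 0.49 in week order, and that of all tested probes was 0.08, -0.03, -0.04 and 0.00.

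**Figure D1:**
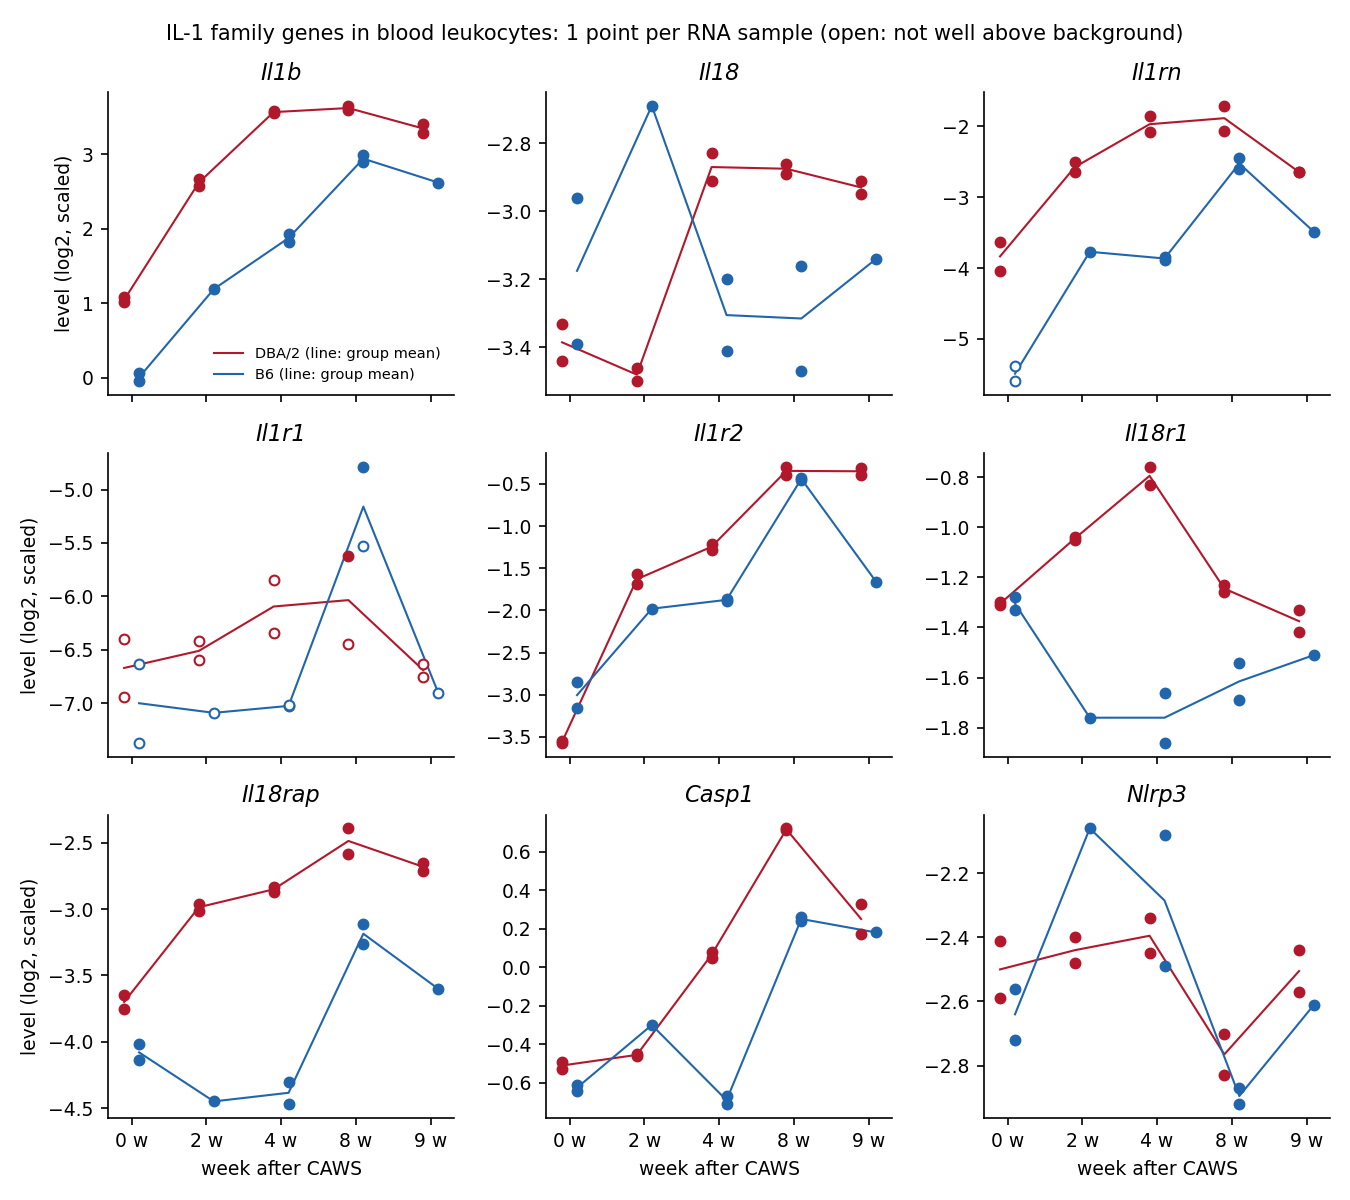
Level (log2, scaled to each array's 75th percentile) of 9 genes by week after CAWS. Each point is 1 RNA sample, lines join group means, and open points are not well above background. Il1b and Il1r2 climbed in both strains, from -0.05 to 1.08 at 0 w to 2.89 to 3.65 at 8 w for Il1b, while Nlrp3 stayed between -2.92 and -2.06.

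Upstream sequences are shown for 4 genes on which the results turn: Il1b, Il1r2, Casp1 and Il18rap, which rose in both strains at 8 w and at 9 w. Each run holds the 250 bases before and the 50 bases after the gene start, read 5' to 3' on the gene's strand, from RefSeq (GRCm38.p6). This reference is a B6 genome, and DBA/2 sequence was not analysed here.
Il1b, chr2:129371090-129371389, minus strand: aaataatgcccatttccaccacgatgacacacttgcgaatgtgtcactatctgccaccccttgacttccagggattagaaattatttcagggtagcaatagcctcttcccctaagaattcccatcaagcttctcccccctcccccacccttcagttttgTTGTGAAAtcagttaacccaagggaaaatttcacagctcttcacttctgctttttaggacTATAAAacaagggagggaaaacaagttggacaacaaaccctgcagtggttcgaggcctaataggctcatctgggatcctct
Il1r2, chr1:40085843-40086142, plus strand: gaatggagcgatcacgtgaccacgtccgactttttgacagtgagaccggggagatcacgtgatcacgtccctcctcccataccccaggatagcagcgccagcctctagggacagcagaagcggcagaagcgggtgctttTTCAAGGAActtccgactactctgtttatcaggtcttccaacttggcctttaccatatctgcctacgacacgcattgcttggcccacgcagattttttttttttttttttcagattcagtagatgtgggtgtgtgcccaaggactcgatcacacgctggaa
Casp1, chr9:5298267-5298566, plus strand: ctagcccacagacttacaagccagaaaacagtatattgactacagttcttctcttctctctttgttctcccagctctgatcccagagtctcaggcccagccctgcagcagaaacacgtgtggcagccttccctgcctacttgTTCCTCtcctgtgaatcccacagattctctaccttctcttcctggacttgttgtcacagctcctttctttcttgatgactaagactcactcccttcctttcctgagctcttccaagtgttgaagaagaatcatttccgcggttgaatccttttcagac
Il18rap, chr1:40515112-40515411, plus strand: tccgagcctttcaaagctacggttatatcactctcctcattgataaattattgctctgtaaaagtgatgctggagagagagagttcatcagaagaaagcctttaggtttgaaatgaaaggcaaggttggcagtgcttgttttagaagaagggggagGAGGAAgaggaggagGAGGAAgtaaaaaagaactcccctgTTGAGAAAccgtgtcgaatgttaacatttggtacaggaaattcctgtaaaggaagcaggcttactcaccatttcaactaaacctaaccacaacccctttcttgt
Capitals mark matches on either strand to the 6 motifs searched: the TATA box with the letters TATAAA, the PU.1 core with the letters GAGGAA, the C/EBP motif with the letters TTNNGNAA, the AP-1 motif with the letters TGANTCA, the interferon-type GAS motif with the letters TTCNNNGAA, and the NF-kB consensus. PU.1 and C/EBP are the main transcription factors of monocytes and neutrophils. In the Il1b window a C/EBP match began 91 bases and a TATA box 31 bases before the gene start. The Il1r2 window held 1 GAS match, 111 bases before the start. In the Casp1 window a PU.1 core lay 108 bases before the start, and the Il18rap window held PU.1 cores 94 and 79 bases and a C/EBP match 54 bases before it. None of these matches overlapped another. Of all 32851 promoter windows in the table, 13.6% held the TATA box, 28.3% the PU.1 core, 40.7% the C/EBP letters, 7.81% AP-1, 8.30% GAS and 8.46% NF-kB. All 10 genes had a window, 16 in all. Counted by window, as the shares are, the TATA box was found in 4 of the 16, PU.1 in 5, C/EBP in 9, and AP-1, GAS and NF-kB in 2 each. Counted by gene, with any of its windows, the TATA box was found in 4, PU.1 in 5, C/EBP in 6, and the other motifs in 2 each. A match is a run of letters and was not tested for binding.

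Il1b encodes IL-1 beta. Its probe lies on chromosome 2 (129056052 to 129056111, minus strand, mm8) and was printed on 10 spots, whose signals varied by 3.14% to 7.89% (coefficient of variation) within an array. In DBA/2 mice the level of Il1b was 1.08 and 1.01 at 0 w, 2.67 and 2.57 at 2 w, 3.58 and 3.55 at 4 w, 3.65 and 3.59 at 8 w, and 3.40 and 3.29 at 9 w. The B6 levels were -0.05 and 0.06 at 0 w, 1.19 at 2 w, 1.82 and 1.93 at 4 w, 2.89 and 2.99 at 8 w, and 2.62 at 9 w. Every later sample was above both 0 w samples of its strain, and the DBA/2 samples were above the B6 samples of the same week at all 5 weeks.

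The rise of Il1b from 0 w in DBA/2 mice was 1.57 (SE 0.08, 2.97-fold, adjusted p = 1.57e-05 by limma) at 2 w and 2.57 (SE 0.08, 5.95-fold, adjusted p = 1.1e-07) at 8 w, with 5.74-fold at 4 w and 4.91-fold at 9 w between them in size. In B6 mice Il1b rose 2.27-fold at 2 w and 3.64-fold at 4 w (adjusted p = 1.14e-06), and 7.64-fold at 8 w (log2 change 2.93, SE 0.08, adjusted p = 1.04e-07) and 6.09-fold at 9 w. The DBA/2 rise was thus near its highest by 4 w, when the B6 rise was 1.86 of its 2.93 log2 units at 8 w. At 0 w Il1b was already 2.05-fold higher in DBA/2 than in B6 mice (log2 difference 1.04, SE 0.08, adjusted p = 1.67e-05). In the order of the 10 group means DBA/2 8 w stood first and B6 0 w last, and of neighbours only B6 9 w and DBA/2 2 w had overlapping values.

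Neutrophil markers were also higher at each later week than at 0 w. The summed level of 10 neutrophil genes was 107 to 108 at 0 w, 282 to 292 at 2 w, 336 to 362 at 4 w, 706 to 786 at 8 w and 266 to 325 at 9 w in DBA/2 mice. The B6 sums were 57.4 to 57.6 at 0 w, 190 at 2 w, 141 to 151 at 4 w, 431 to 434 at 8 w and 225 at 9 w. The sums and Il1b did not run in parallel between weeks: in B6 mice the sum was lower at 4 w than at 2 w while Il1b was higher, and in DBA/2 mice the sum was higher at 8 w than at 4 w while Il1b differed little. At least 9 of the 10 neutrophil genes rose at each later week in each strain, beside 5.28% to 13.4% of all tested probes. Ngp and Camp were not well above background in either B6 0 w sample. The part of a change in neutrophil or monocyte number in the changes of Il1b, Il1rn, Il1r2 and Casp1 was not tested, and in RNA of mixed cells more cells of a type and more RNA per cell cannot be told apart.

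**Figure D2:**
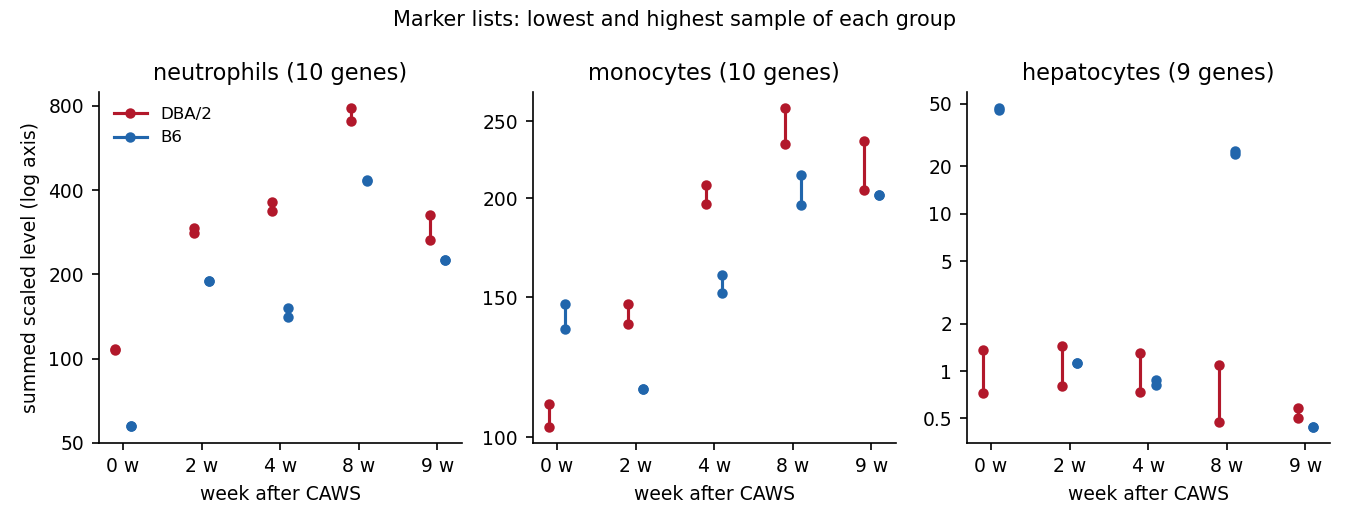
Summed scaled level (log axis) of the neutrophil, monocyte and hepatocyte marker lists by week after CAWS. Points are the lowest and highest sample of each group. Neutrophil markers peaked at 8 w in both strains (706 to 786 in DBA/2, 431 to 434 in B6), and hepatocyte markers were high in the B6 groups of 0 w and 8 w.

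Il18 encodes the IL-1 related cytokine IL-18 and was probed on chromosome 9 (50331595 to 50333723, mm8). In DBA/2 mice its level was -3.33 and -3.44 at 0 w, -3.46 and -3.50 at 2 w, -2.83 and -2.91 at 4 w, -2.89 and -2.86 at 8 w, and -2.91 and -2.95 at 9 w. Among B6 samples Il18 was at -2.96 and -3.39 at 0 w, -2.69 at 2 w, -3.20 and -3.41 at 4 w, -3.16 and -3.47 at 8 w, and -3.14 at 9 w. The 6 DBA/2 samples from 4 w on were above the 4 earlier ones, whereas the B6 samples at 4, 8 and 9 w lay within or below the range of the B6 0 w samples.

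Il18 rose by 0.52 (SE 0.15, 1.43-fold) at 4 w and at 8 w in DBA/2 mice (adjusted p = 0.0477 and 0.033) and by 0.46 at 9 w (adjusted p = 0.0478). These calls were close to the threshold: leaving out 1 sample ended the 4 w call in 12 of 18 cases (adjusted p 0.0563 to 0.2), the 8 w call in 4 (0.0793 to 0.153) and the 9 w call in 12 (0.0545 to 0.192), with changes between 0.40 and 0.57. The 8 w call was lost without either DBA/2 0 w or either DBA/2 8 w sample. The B6 changes of Il18 did not pass the threshold, with 0.49 for 2 w (adjusted p = 0.125), and -0.13, -0.14 and 0.03 for the later weeks in turn. The 2 w value passed the threshold without B6 0 w replicate 1 (0.70, adjusted p = 0.0352) and with spots kept that the scanner software had marked as outliers (0.90, adjusted p = 0.00841). The 8 to 10 usable spots of Il18 varied by 5.42% to 23.7% within an array.

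Il1a, the gene of IL-1 alpha, was not well above background in any of the 18 samples with either of its 2 probes. Its probes lie on chromosome 2 (128994430 to 128996164 and 128991699 to 128991758, mm8). Its level has only an upper bound here, so no change was tested and no fold is given.

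Il1rn encodes the IL-1 receptor antagonist, and its probe lies on chromosome 2 (24172614 to 24172673, mm8). Its level in DBA/2 mice was -3.63 and -4.04 at 0 w, -2.51 and -2.64 at 2 w, -1.86 and -2.08 at 4 w, -1.71 and -2.06 at 8 w, and -2.64 and -2.65 at 9 w. The B6 mice gave -5.60 and -5.38 at 0 w, neither well above background, then -3.77 at 2 w, -3.89 and -3.84 at 4 w, -2.45 and -2.60 at 8 w, and -3.49 at 9 w. All later samples were above those of 0 w in their strain. The rise in DBA/2 mice was 2.39-fold at 2 w (log2 change 1.26, SE 0.16, adjusted p = 0.00113), 3.64-fold at 4 w, 3.87-fold at 8 w (1.95, SE 0.16, adjusted p = 3.2e-05) and 2.28-fold at 9 w.

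In B6 mice the fold of Il1rn has only a lower bound, which sets the later mean against the lowest signal called well above background on each 0 w array, or the probe's own signal where that was higher. It was at least 1.98-fold at 2 w (adjusted p = 0.000354), at least 1.85-fold at 4 w (adjusted p = 0.000213), at least 4.71-fold at 8 w (adjusted p = 3.2e-06) and at least 2.41-fold at 9 w (adjusted p = 0.000252). At 0 w Il1rn was at least 1.89-fold higher in DBA/2 than in B6 mice (adjusted p = 5.83e-05). The second Il1rn probe was not well above background in any sample. Under normexp the changes were 0.57, 0.80 and 0.95 at 2, 4 and 8 w in DBA/2 mice and 0.14, 0.24, 0.07 and -0.13 at 2, 4, 8 and 9 w in B6 mice, and none of these passed. The 0 w strain difference of Il1rn turned to -0.36 under normexp and did not pass (adjusted p = 0.494 by limma).

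The 4 receptor genes sit close together. Their probes span 426 kb of chromosome 1 (40067715 to 40493489, mm8). Il1r1 encodes the signalling receptor of IL-1. It was well above background in 1 DBA/2 8 w sample (-5.62, the other at -6.45) and 1 B6 8 w sample (-4.79, the other at -5.53), and its level in the other samples was -7.37 to -5.85. The fitted change in B6 mice at 8 w (1.84, adjusted p = 0.00585) is no measured rise. The gene entered the test only through 8 w samples, and its 8 w mean of -5.16 is below the floor of -4.76, the lowest level called well above background on the 0 w arrays. The call was also lost without B6 0 w replicate 1 (1.47, adjusted p = 0.0508) and with the slide as a block (0.94, adjusted p = 0.205). In the B6 0 w samples Il1r1 was at -7.37 and -6.63, neither well above background. Hepatocyte markers were high in both the B6 0 w and the B6 8 w samples, and the part of hepatocyte RNA in the Il1r1 signal was not tested.

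Il1r2 encodes the decoy receptor, which binds IL-1 and does not signal. In DBA/2 mice its level was -3.55 and -3.57 at 0 w, -1.69 and -1.57 at 2 w, -1.21 and -1.28 at 4 w, -0.30 and -0.39 at 8 w, and -0.39 and -0.31 at 9 w. Il1r2 in B6 mice was at -2.85 and -3.16 at 0 w, -1.98 at 2 w, -1.86 and -1.89 at 4 w, -0.43 and -0.45 at 8 w, and -1.66 at 9 w. At 0 w both DBA/2 samples were below both B6 samples, and at each later week all DBA/2 samples were above those of B6.

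Among the genes well above background throughout, Il1r2 had the largest rise in DBA/2 mice at 2, 8 and 9 w, and Il1b had it at 4 w and in B6 mice at every week. Il1r2 rose 3.82-fold at 2 w (log2 change 1.93, SE 0.10, adjusted p = 1.57e-05), 4.97-fold at 4 w, 9.29-fold at 8 w (3.22, SE 0.10, adjusted p = 1.1e-07) and 9.25-fold at 9 w in DBA/2 mice. B6 mice showed rises of 2.03-fold at 2 w, 2.19-fold at 4 w (adjusted p = 0.000127), 5.91-fold at 8 w (2.56, SE 0.10, adjusted p = 4.99e-07) and 2.53-fold at 9 w (adjusted p = 0.000188). At 0 w it was 1.47-fold lower in DBA/2 mice (log2 difference -0.55, SE 0.10, adjusted p = 0.00287). Under normexp the B6 changes at 2, 4 and 9 w were 0.36, 0.44 and 0.38 and did not pass. The second Il1r2 probe was not well above background at 0 w in either strain and gave at least 1.94, 2.96, 7.03 and 5.43-fold higher signals at 2, 4, 8 and 9 w in DBA/2 mice, and at least 1.52, 1.43, 5.58 and 1.77-fold in B6 mice, where its own changes at 2, 4 and 9 w did not pass the threshold (adjusted p = 0.103, 0.0577 and 0.0704) and 1 of 2 samples measured it at 4 w.

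**Figure D3:**
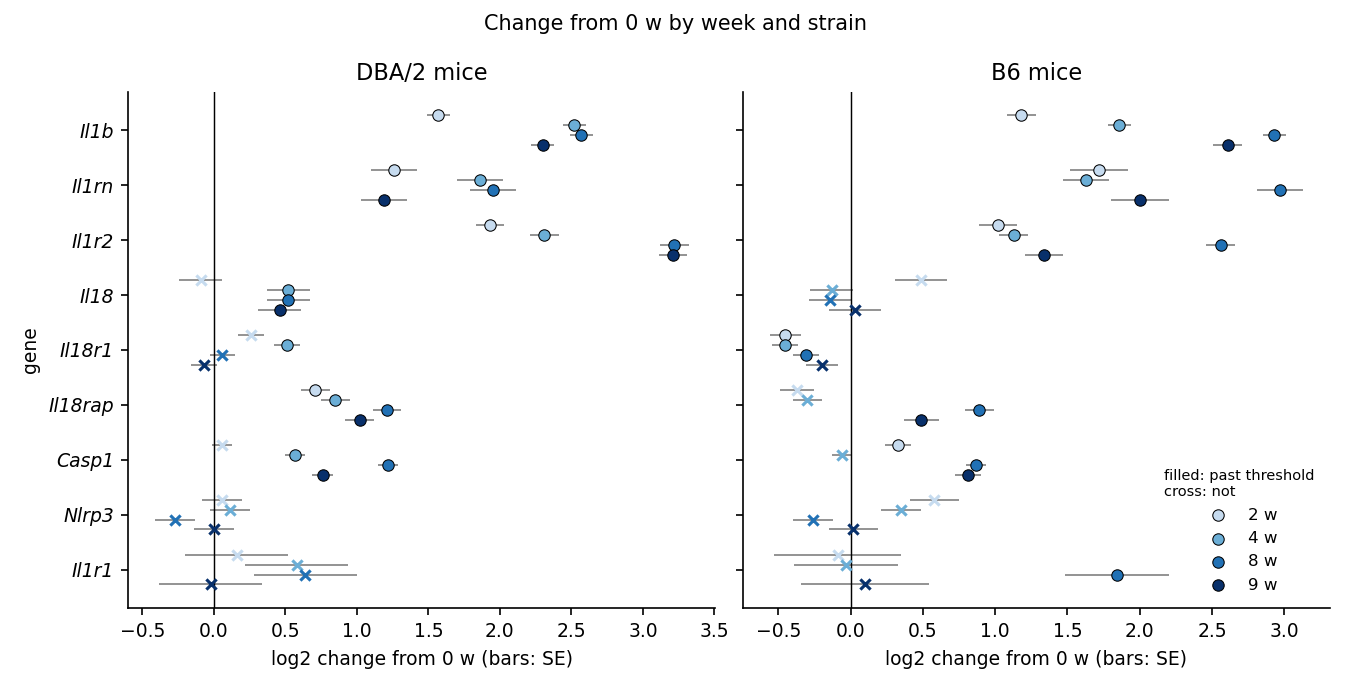
Log2 change from 0 w (x axis, bars are SE) of 9 genes at 2, 4, 8 and 9 w in DBA/2 mice (left) and B6 mice (right). Filled points passed the threshold of 0.05 and crosses did not. Il1r2 reached 3.22 in DBA/2 and 2.56 in B6 mice, and the filled points of Il18r1 lie below 0 in B6 mice (-0.45, -0.45 and -0.31).

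Il18r1 encodes the ligand-binding chain of the IL-18 receptor. Its level in DBA/2 mice was -1.31 and -1.30 at 0 w, -1.05 and -1.04 at 2 w, -0.76 and -0.83 at 4 w, -1.26 and -1.23 at 8 w, and -1.33 and -1.42 at 9 w. The corresponding B6 levels were -1.33 and -1.28 at 0 w, -1.76 at 2 w, -1.66 and -1.86 at 4 w, -1.54 and -1.69 at 8 w, and -1.51 at 9 w. The strains overlapped at 0 w and not at any later week. In DBA/2 mice Il18r1 rose at 4 w (0.51, SE 0.09, 1.43-fold, adjusted p = 0.00443), while the changes of 0.26 for 2 w (adjusted p = 0.0835), 0.06 for 8 w and -0.07 for 9 w did not pass. With the replicate number (the scan day) or the slide as a block the 2 w change of 0.26 passed (adjusted p = 0.0472 and 0.0462).

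In B6 mice Il18r1 fell 1.37-fold at 2 w (-0.45, adjusted p = 0.023) and at 4 w (-0.45, SE 0.09, adjusted p = 0.0085) and 1.24-fold at 8 w (-0.31, adjusted p = 0.0359), and the 9 w change was -0.20 (adjusted p = 0.314). The 2 w call was lost without either B6 0 w sample (adjusted p = 0.0622 and 0.0958), and the 4 w call without B6 0 w replicate 2 (-0.43, adjusted p = 0.0561) or B6 4 w replicate 2 (-0.36, adjusted p = 0.0672). The 8 w call was lost in 9 of 18 cases, with changes between -0.33 and -0.23 and adjusted p between 0.0505 and 0.205.

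Il18rap encodes the accessory chain that the IL-18 receptor needs to signal. In DBA/2 mice its level was -3.75 and -3.65 at 0 w, -3.01 and -2.96 at 2 w, -2.83 and -2.87 at 4 w, -2.39 and -2.58 at 8 w, and -2.71 and -2.65 at 9 w. For B6 mice the Il18rap levels were -4.14 and -4.02 at 0 w, -4.45 at 2 w, -4.47 and -4.30 at 4 w, -3.26 and -3.11 at 8 w, and -3.60 at 9 w. The B6 samples of 2 w and 4 w were thus below both of 0 w and those of 8 w and 9 w above them, while every later DBA/2 sample was above 0 w. Il18rap rose in DBA/2 mice at each week, by 0.71 at 2 w (1.64-fold, adjusted p = 0.00175), 0.85 at 4 w (1.81-fold), 1.21 at 8 w (SE 0.10, 2.32-fold, adjusted p = 3.03e-05) and 1.02 at 9 w (2.02-fold). Under normexp these changes were 0.39, 0.34, 0.58 and 1.13 in week order, and none passed.

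In B6 mice the change of Il18rap was -0.37 at 2 w and -0.30 at 4 w (adjusted p = 0.0858 and 0.0747), and these did not pass, whereas Il18rap was raised by 0.89 at 8 w (SE 0.10, 1.86-fold, adjusted p = 0.000236) and by 0.49 at 9 w (1.40-fold, adjusted p = 0.0387). The 9 w call was lost in 8 of 17 cases when 1 sample was left out (0.43 to 0.55, adjusted p 0.0538 to 0.157) and with the slide as a block (0.32, adjusted p = 0.126). At 0 w Il18rap was 1.30-fold higher in DBA/2 mice (0.38, adjusted p = 0.0162), a call lost without B6 0 w replicate 1 (0.32, adjusted p = 0.104) or DBA/2 0 w replicate 2 (0.33, adjusted p = 0.0955). The 4 w change in B6 mice passed with the slide as a block (-0.37, adjusted p = 0.0375) and with a filter at 9 of 18 samples (-0.30, adjusted p = 0.0493). Under normexp the B6 changes at 8 w and 9 w turned to -0.41 and -0.29 and the 0 w difference to -0.43, and none of these passed. A second probe of the gene was not well above background in any sample.

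Casp1 encodes caspase-1 and was probed on chromosome 9 (5306226 to 5306728, mm8). Its level in DBA/2 mice was -0.49 and -0.53 at 0 w, -0.46 and -0.45 at 2 w, 0.08 and 0.05 at 4 w, 0.72 and 0.71 at 8 w, and 0.33 and 0.17 at 9 w. Casp1 in B6 mice was at -0.61 and -0.64 at 0 w, -0.30 at 2 w, -0.71 and -0.67 at 4 w, 0.24 and 0.26 at 8 w, and 0.18 at 9 w. At 4 w both DBA/2 samples were above their 0 w samples and both B6 samples below theirs, whereas at 8 w all samples of both strains were above 0 w.

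The change of Casp1 in DBA/2 mice was 0.06 at 2 w (adjusted p = 0.748), and the gene then rose by 0.57 at 4 w (SE 0.07, 1.49-fold, adjusted p = 0.000791), 1.22 at 8 w (SE 0.07, 2.34-fold, adjusted p = 3.63e-06) and 0.76 at 9 w (1.70-fold, adjusted p = 9.08e-05). The B6 rise was 0.33 for 2 w (adjusted p = 0.0406), 0.87 for 8 w (1.83-fold, adjusted p = 4.23e-05) and 0.81 for 9 w (1.75-fold, adjusted p = 0.000482), while the 4 w change of -0.06 did not pass (adjusted p = 0.666). The B6 2 w call rests on 1 sample and was lost in 14 of 17 cases when another sample was left out (adjusted p 0.0581 to 0.142).

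Nlrp3 encodes the sensor of the best known inflammasome, with its probe on chromosome 11 (59381247 to 59381306, mm8). Its level in DBA/2 mice was -2.59 and -2.41 at 0 w, -2.48 and -2.40 at 2 w, -2.34 and -2.45 at 4 w, -2.83 and -2.70 at 8 w, and -2.44 and -2.57 at 9 w. Nlrp3 in B6 mice was at -2.56 and -2.72 at 0 w, -2.06 at 2 w, -2.08 and -2.49 at 4 w, -2.92 and -2.87 at 8 w, and -2.61 at 9 w. Samples of 0 w overlapped those of 2, 4 and 9 w in DBA/2 mice, and both strains had their lowest values at 8 w. The changes were between -0.27 and 0.11 in DBA/2 mice and between -0.26 and 0.58 in B6 mice, and none passed the threshold. The B6 change at 2 w (0.58, SE 0.17, 95% interval 0.20 to 0.95, adjusted p = 0.0514) passed it without either B6 4 w sample (adjusted p = 0.0205), and that at 4 w (0.35, adjusted p = 0.12) did so without B6 4 w replicate 2 (0.56, adjusted p = 0.0338) and with the slide as a block (0.40, adjusted p = 0.0292). Quantile normalization also brought the 2 w change past it (0.59, adjusted p = 0.0485).

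The DBA/2 samples of 0, 2, 4 and 8 w shared 1 slide for replicate 1 and another for replicate 2, which allowed the changes to be read within each slide. For Il1b they were 1.58 and 1.56 at 2 w, 2.50 and 2.54 at 4 w, and 2.56 and 2.58 at 8 w. For Il1r2 they were 1.86 and 2.01, 2.34 and 2.29, and 3.25 and 3.18 at the same weeks. In B6 mice the Il1b changes within a slide were 1.24 at 2 w, 1.86 and 1.83 at 4 w, 2.89 at 8 w and 2.52 at 9 w, and those of Il1r2 were 0.87, 0.99 and 1.32, 2.76 and 1.54. The DBA/2 9 w samples lay on other slides than those of 0 w, and no within-slide value can be given for them.

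The study asked how the response to CAWS differs between the strains. To compare the responses, the change from 0 w to the mean of 4 w and 8 w in B6 mice was subtracted from that in DBA/2 mice. The change was higher in DBA/2 mice for 5 of the 9 tested genes and lower for none, beside 6.48% of all tested probes with a higher and 6.73% with a lower change. The median difference of the 9 genes was 0.50, against -0.04 over all tested probes. The strains also differed at 0 w itself, where 3 genes were higher in DBA/2 mice (Il1b, Il1rn and Il18rap) and Il1r2 was lower, among 17.2% of all probes that were higher and 15.4% that were lower. Under normexp the 0 w differences of Il1rn (-0.36) and Il18rap (-0.43) changed sign and did not pass. Within the scan days the 0 w difference was 1.13 and 0.94 for Il1b, 1.97 and 1.34 for Il1rn, 0.39 and 0.37 for Il18rap, and -0.70 and -0.41 for Il1r2. A strain difference of the sequence under a probe, which these data do not show, would also appear here.

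The difference was largest for Il1r2, at 0.92 log2 units (SE 0.13, 95% interval 0.63 to 1.20, adjusted p = 0.00157). Il1r2 was lower in DBA/2 mice at 0 w (-0.55), and its mean level at 8 w was -0.34 in DBA/2 and -0.44 in B6 mice. For Il18rap the difference in change was 0.74 (SE 0.12, interval 0.46 to 1.02, adjusted p = 0.0043), and for Il18r1 0.66 (SE 0.11, interval 0.42 to 0.91, adjusted p = 0.00375). The difference of Casp1 was 0.50 (SE 0.09, interval 0.30 to 0.70, adjusted p = 0.00634). Within each scan day it was 1.09 and 0.75 for Il1r2, 0.87 and 0.61 for Il18rap, 0.57 and 0.76 for Il18r1, and 0.52 and 0.47 for Casp1. For these 4 genes the DBA/2 response was higher on both days, but the days hold the same samples as the contrast and are no separate test. The second Il1r2 probe differed by 1.37 (adjusted p = 0.0622), against dim 0 w samples. The Il18 difference of 0.65 (SE 0.18, interval 0.24 to 1.06, adjusted p = 0.046) was close to the threshold, and was lost in 14 of 18 cases when 1 sample was left out (0.44 to 0.71, adjusted p 0.0511 to 0.173). With another background correction (normexp) the differences were 0.83, 0.65, 0.59, 0.48 and 0.56 for Il1r2, Il18rap, Il18r1, Casp1 and Il18, and none of the 5 passed (adjusted p 0.139 to 0.968). With no filter on dim probes Casp1 and Il18 no longer passed (adjusted p = 0.0931 and 0.163).

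For Il1b the strain difference in the change was 0.15 (SE 0.10), and its 95% interval of -0.08 to 0.38 bounds how far the average responses could differ. For Il1rn it was -0.39 (interval -0.84 to 0.06, adjusted p = 0.265) and rests on B6 0 w signals that were not well above background. With the slide as a block it was -0.56 (adjusted p = 0.0367). Nlrp3 differed by -0.13 (interval -0.51 to 0.25) and Il1r1 by -0.30 (adjusted p = 0.768), the latter mostly below background.

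When only 4 w was compared, the change was higher in DBA/2 mice for 5 genes, beside 11.8% of all tested probes that differed in either direction. These were Il1r2 (1.18, SE 0.15, adjusted p = 0.000831), Il18rap (1.16, SE 0.14, adjusted p = 0.000781), Il18r1 (0.96, SE 0.12, adjusted p = 0.00105), Il1b (0.66, SE 0.12, adjusted p = 0.00672) and Casp1 (0.64, SE 0.10, adjusted p = 0.00355). When only 8 w was compared, 3 genes passed (17.5% of all probes did in either direction). Il1r2 (0.65, adjusted p = 0.0144) and Casp1 (0.35, adjusted p = 0.0435) had a higher change in DBA/2 mice. Il1rn passed with a lower one (adjusted p = 0.0149), but its B6 change has only a lower bound and no size is given for the difference. At 8 w the difference was -0.36 for Il1b (interval -0.63 to -0.09, adjusted p = 0.0684), 0.36 for Il18r1 (adjusted p = 0.0784) and 0.32 for Il18rap (adjusted p = 0.169). The 2 comparisons by week were chosen after the values had been seen and share the 0 w samples, and the difference between the weeks was not tested.

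**Figure D4:**
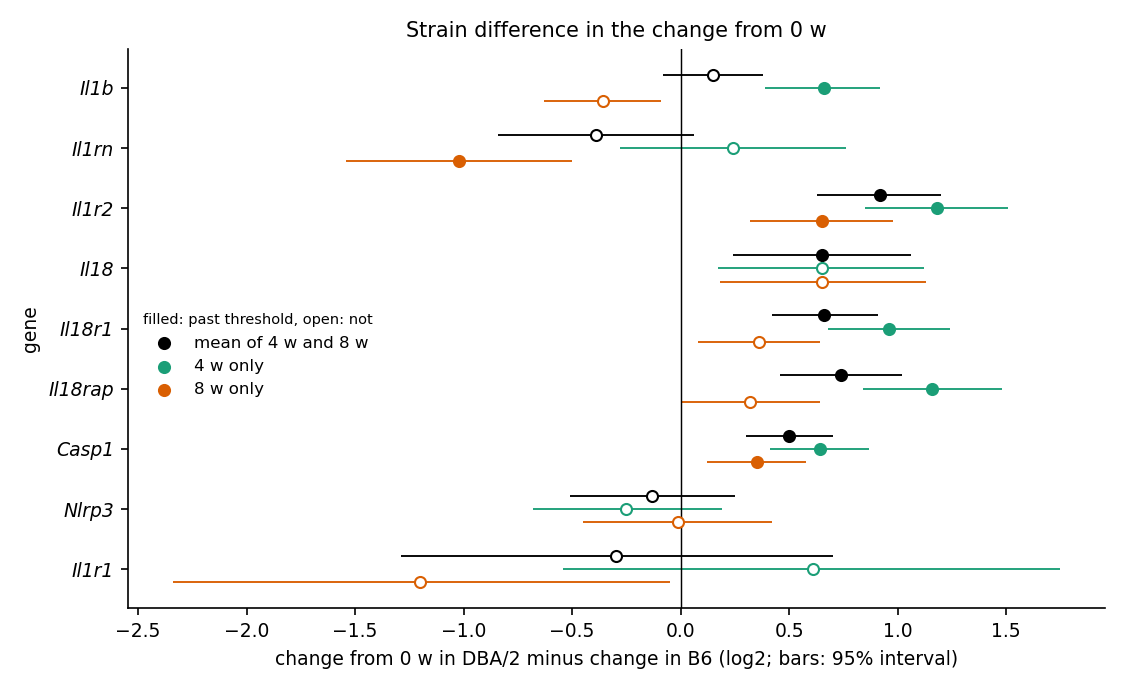
Strain difference in the change from 0 w, DBA/2 minus B6 (log2 units, bars are 95% intervals) for the mean of 4 w and 8 w and for each week. Filled points passed the threshold. Il1r2 and Casp1 are filled in all 3 comparisons, and Il1b lies at 0.66 at 4 w and at -0.36 at 8 w.

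Markers of other cells moved with the strain difference. The counts of this paragraph stand beside 6.48% of all tested probes with a higher change in DBA/2 mice and 6.73% with a lower one. Of 10 monocyte genes 8 had a higher change in DBA/2 mice and 1 (F13a1) a lower one, with a median of 1.00. Their summed level was 103 to 110 at 0 w, 197 to 208 at 4 w and 234 to 260 at 8 w in DBA/2 mice, and 137 to 147, 152 to 160 and 196 to 214 in B6 mice. Of 7 NK cell genes 5 (Gzma, Klrb1c, Klrk1, Ncr1 and Prf1) had a higher change, with a median of 1.23. The NK cell sum in DBA/2 mice was 2.17 and 2.18 at 0 w, 2.46 and 2.63 at 4 w, and 3.73 and 3.9 at 8 w. In B6 mice the sums were 4.59 and 4.62 at 0 w, 2.46 and 2.53 at 4 w, and 3.08 and 3.09 at 8 w. Of 10 neutrophil genes 2 (Mmp9 and Retnlg) had a higher and 1 (Camp) a lower change, with a median of 0.10. Among the remaining lists 3 of 5 erythroid and 2 of 5 tissue macrophage genes had a higher change, and 3 of 7 B cell genes, 1 of 8 T cell genes and 1 of 6 platelet genes a lower one. Of 9 hepatocyte genes 5 had a higher fitted change. Among these Apoa1, Apoa2 and Cyp2e1 were well above background in no DBA/2 group and entered the test only through B6 samples of 0 w and 8 w. Alb changed by -10.59 at 4 w in B6 mice and by -3.92 at 8 w in DBA/2 mice. Fabp1 changed by -10.77 at 4 w in B6 mice and by 3.74 at 4 w in DBA/2 mice, where it was dim at 0 w. The part of these cells in the strain differences was not tested.

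Other genes of the pathway were read by list. The list counts of this paragraph and the next stand beside these shares of all tested probes. In the strain difference 6.48% had a higher and 6.73% a lower change in DBA/2 mice. At 8 w 10% rose and 14.0% fell in DBA/2 mice, and 11.0% rose and 10.2% fell in B6 mice. Of 10 tested inflammasome and pyroptosis genes 5 had a higher change in DBA/2 mice and none a lower one, with a median difference of 0.49. At 8 w 3 of the 10 rose in DBA/2 mice, and 2 rose and 1 fell in B6 mice. P2rx7, the ATP receptor that triggers the NLRP3 inflammasome, differed by 1.76 (SE 0.14, adjusted p = 7.79e-05). Its level in DBA/2 mice was -2.17 and -2.41 at 0 w, -1.34 and -1.36 at 4 w, and -1.94 and -2.17 at 8 w, and in B6 mice it was -1.34 and -1.37, -2.95 and -3.04, and -2.02 and -2.11. P2rx7 thus rose at 4 w in DBA/2 mice (0.94) and fell in B6 mice (-1.64). Mefv, which encodes the sensor pyrin, differed by 0.63 (adjusted p = 0.0037) and rose at all weeks in both strains, by 0.82 to 2.64. Casp4, the gene of a caspase that senses endotoxin, differed by 0.54 (adjusted p = 0.0349) and also rose at all weeks in both. Gsdmd, whose product forms the pore of pyroptosis, differed by 0.58 (adjusted p = 0.00401), with a rise of 0.67 at 8 w in DBA/2 mice and a fall of 0.46 at 4 w in B6 mice. The fifth was Pycard, the inflammasome adaptor, at 0.44 (adjusted p = 0.0367), a gene named after its value was seen.

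At 8 w the wider IL-1 family had 3 genes that rose and 1 that fell in DBA/2 mice (2 and 1 in B6 mice), the signalling list 2 and 3 (2 and 1), and the response list 3 and 0 (1 and 2). Of 8 tested genes of the wider IL-1 family and its receptors Sigirr, an inhibitory receptor, had a lower change in DBA/2 mice (-0.51, adjusted p = 0.00679). It fell at every later week in DBA/2 mice, by 0.48 to 0.73, and its changes in B6 mice, between -0.17 and -0.04, did not pass the threshold. Of 10 tested signalling genes Myd88, the adaptor of the IL-1 and IL-18 receptors, had a higher change (0.63, adjusted p = 0.029). It rose at every later week in DBA/2 mice, by 0.61 to 1.81, and in B6 mice at 8 w (1.52) and 9 w (0.86). Of 8 tested response genes Icam1, an adhesion molecule (1.04, adjusted p = 0.000266), and Nfkbia, the NF-kB inhibitor gene (0.41, adjusted p = 0.0361), had a higher change. Icam1 changed by 0.66 at 4 w and 0.75 at 8 w in DBA/2 mice, both past the threshold. The B6 values were -0.41, which passed, and -0.26, which did not. Before that, at 0 w, Icam1 was lower in DBA/2 than in B6 mice (-0.71). For Nfkbia no DBA/2 change passed (-0.03 to 0.25), and of its B6 changes only that of -0.41 at 8 w did. Il6, counted among the response genes that rose at 8 w in DBA/2 mice, was not well above background at 0 w in either strain. It was so only in DBA/2 samples of 4 w and 8 w. Il6 entered the test only through those samples, and its call is no measured rise.

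**Figure D5:**
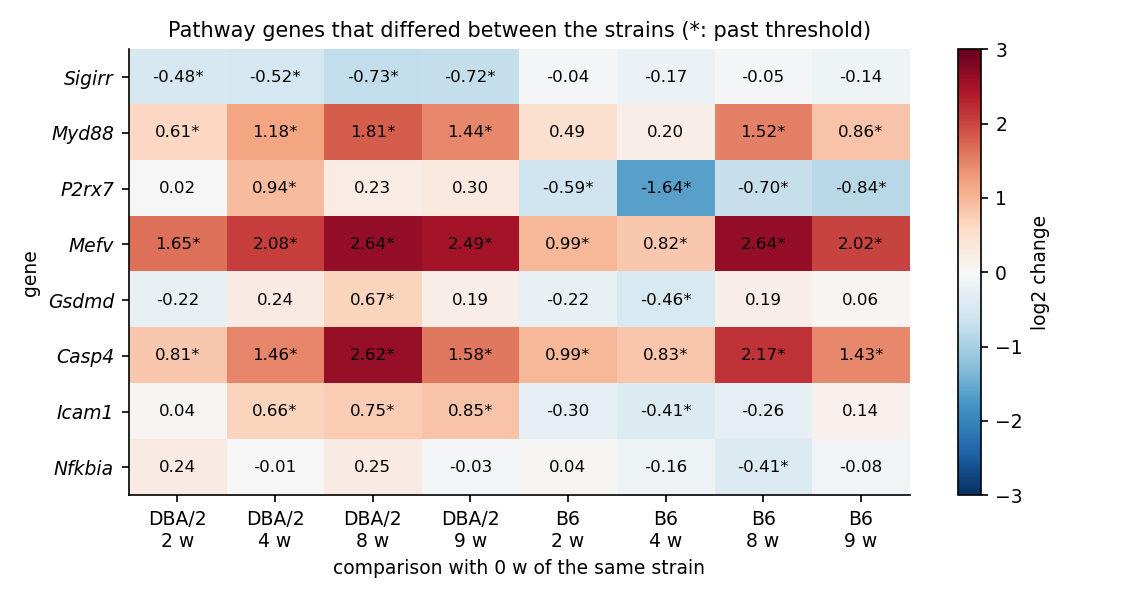
Log2 change from 0 w (colour and printed number, an asterisk marks values past the threshold) of 8 pathway genes named by the strain difference, by week and strain. P2rx7 is at 0.94 in DBA/2 and -1.64 in B6 mice at 4 w, and Mefv is positive and past the threshold in all 8 columns.

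Over the 10 DBA/2 samples the levels of Il1b and Il1r2 correlated with r = 0.95, Il1r2 and Il18rap with 0.98, and Il18 and Casp1 with 0.88. Over the 8 B6 samples the same pairs gave 0.93, 0.70 and -0.04. Il18r1 correlated little with the other genes that rose in DBA/2 mice, between -0.14 (Casp1) and 0.32 (Il1b), and Nlrp3 had r below 0 with Il1b, Il1r2, Il18, Il18rap and Casp1 there (-0.63 to -0.21). Samples of 1 week share their time and animals of 1 strain, so these values describe courses over 5 weeks and carry no p. The genes most like a member over the DBA/2 samples, among 9484 probes well above background throughout, were Tnfsf14 (r = 0.994 in DBA/2, 0.794 in B6), Csf2rb (0.994 and 0.937) and Rnf149 (0.992 and 0.891) for Il1b. For Il1r2 they were Lins1 (0.994 and 0.903), Gapdh (0.992 and 0.740) and Mefv (0.991 and 0.953). Ebi3 (0.995 and 0.875) came first for Casp1 and Zfp710 (0.995 and -0.058) for Il18. Klrc2, an NK cell receptor gene, came first for Il18r1 (0.945 and 0.463) and Trpc4ap for Nlrp3 (0.943 and -0.788). For Il18rap the named genes were Clec4e (0.988 and 0.678) and Oasl2 (0.987 and 0.740), after a transcript with no gene name.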

How the data were processed

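The authors hybridised cRNA labelled with Cy3 from each sample to a 4x44K whole mouse genome array, scanned it and extracted the spots with Agilent Feature Extraction (version 9.5.3.1 per the labels). The deposited scanner files hold 1 processed signal intensity per spot, which per the file headers had passed spatial and multiplicative detrending, with surrogate values for the dimmest spots, and no normalization between arrays. The deposited value table of the series holds the same intensity per probe (all values within a fraction of 0.001 of the scanner values), and its columns all matched a sample. Probe positions are those of the files' annotation (mm8).

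From these, log2 of the processed signal was taken, spots marked as outliers were left out, spots of a probe were averaged, and each array's 75th percentile over 11536 probes well above background on all 19 arrays was subtracted. Of 41174 probes, 22939 that were well above background in at least 2 of 18 samples were tested with limma (version 3.58.1, R 4.3.3): 1 mean per strain and week, empirical Bayes moderation (8 residual degrees of freedom) and Benjamini-Hochberg adjustment, with a threshold of 0.05. B6 2 w and 9 w, with 1 sample each, were assumed to vary like the other groups. A gene is given by its brightest probe. Genes were named through RefSeq accessions (24375 probes), symbols (6301) or synonyms (2426), and 8072 probes kept the name in the file.

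The study's methods state no test for the arrays. The 10 genes and all gene lists were chosen with earlier results of these data known, and other pathway genes were named if past the threshold in the strain difference, at most 4 per list, Pycard being named beyond this rule after its value was seen. The 3 genes most like a member had the highest Pearson r over the DBA/2 samples. Alternatives were other background correction, normalization, filters, spot and probe handling, slide or replicate blocks, either array of B6 0 w replicate 2, and leaving out each sample. The fit was tested on simulated data.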

Additional observations from a re-analysis of the deposited data

Results flagged for a closer look

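The change from 0 w to the mean of 4 w and 8 w differed between the strains by the limma contrast of the difference itself for 5 genes, each with a higher change in DBA/2 mice. Of all tested probes 6.48% had a higher and 6.73% a lower change. In log2 units the difference was 0.92 for Il1r2, 0.74 for Il18rap, 0.66 for Il18r1, 0.65 for Il18 and 0.50 for Casp1. None of the 5 passed under normexp, and the Il18 call was lost in 14 of 18 cases when 1 sample was left out. When only 8 w was compared, Il1r2 and Casp1 were the only ones of the 5 that passed. All 4 DBA/2 samples of 4 w and 8 w were above both DBA/2 0 w samples for Il1r2, Il18rap, Il18r1, Il18 and Casp1, although the 8 w change of Il18r1 was 0.06 and did not pass. In B6 mice the 4 samples were above 0 w for Il1r2, below it for Il18r1, and on both sides of it for Il18rap and Casp1. For Il18 they lay within or below the range of the B6 0 w samples. Hepatocyte, monocyte and NK cell markers differed in the same contrast, and their part was not tested.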

How the results depend on the processing

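Of 90 gene and comparison pairs 53 passed the threshold. Over 1579 recomputed values of these, 1426 kept direction and call, 147 lost the call and 6 changed sign, and 20 further values gained it. Outside the normexp background correction 38 of the 53 kept their call throughout. Normexp (offset 50) lowered the counts of changed genes to 2, 2 and 3 at 2, 4 and 8 w in DBA/2 mice, to 1, 1, 3 and 1 at 2, 4, 8 and 9 w in B6 mice, to 0 for the strain difference in change by limma (3 at an unadjusted p under 0.05, and 90 of all probes passed) and to 2 at 0 w. Calls over all tested probes were also fewer than in the main fit in each of these comparisons. Under normexp 147, 293 and 615 of all probes passed at 2, 4 and 8 w in DBA/2 mice. In B6 mice 272, 84, 782 and 97 did at 2, 4, 8 and 9 w, and 1182 did between the strains at 0 w. In the main fit 1814 rose and 1794 fell at 2 w in DBA/2 mice. Under it the sign turned for Il18rap, B6 8 w (-0.41) and B6 9 w (-0.29), Il1r1, B6 8 w (-0.64), Il1rn, B6 9 w (-0.13), and at 0 w for Il18rap (-0.43) and Il1rn (-0.36), and the median of all probes shifted to -0.63 at B6 8 w, -0.34 at B6 9 w, 0.78 at DBA/2 9 w and -0.44 at 0 w. The cause was not tested. With no filter on dim probes more probes were tested, and the counts were 3 at 2 w in B6 mice and 3 for the strain difference, as for 8 w alone. Another 52 values that passed under neither setting changed sign (median size 0.10).

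When 1 sample was left out the counts ranged from 4 to 4, 6 to 7, 5 to 6 and 5 to 6 at 2, 4, 8 and 9 w in DBA/2 mice, 3 to 5, 3 to 4, 5 to 7 and 4 to 5 in B6 mice, 4 to 5 for the strain difference and 3 to 4 at 0 w. The lowest B6 2 w count came without B6 0 w replicate 2. With the replicate number as a block, which is also the scan day, the counts were 5, 7, 6 and 6 in DBA/2 mice, 5, 4, 7 and 5 in B6 mice, 5 for the strain difference and 4 at 0 w. The deviations of same-numbered samples correlated above 0.1 in 23 of 28 pairs of groups (lowest -0.0098, median 0.166, highest 0.816). Since not every pair did and no label ties the numbers to animals, the fit without the block was kept, although the scan day was shared. The block changed 1 call, that of Il18r1, DBA/2 2 w (0.26, adjusted p = 0.0472). The slide as a block could not be fitted for DBA/2 9 w and for the strains at 0 w. With the second array of B6 0 w replicate 2 alone, 7 calls were lost, 4 of them of Il18. Dim signals limit Il1a, Il1r1 and the B6 0 w level of Il1rn.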
